A study of Rattus norvegicus with 12 samples.

Results

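Interferon-stimulated genes are genes whose transcription rises when a cell senses interferon, and 39 of them were examined in whole rat mammary glands. A gene was taken as a member if its symbol was on the list, which was drawn up with earlier results of these data known, and 38 of the 39 were found among the 16511 genes of the count table. Xaf1 was not analysed here in counts. Of these 38 members, 31 passed edgeR's filter on low counts and were tested, and the other 7 are given by their counts. Reads per gene had been counted in 12 glands at postnatal day (PND) 21, each from a separate litter and each snap frozen whole. In 6 of them the dams had been fed a high fat butter (HFB) diet and in the other 6 the control (CTL) diet, named AIN. No label names a further treatment, a genotype or a strain, and the methods of the study, which describe sequencing of dissected epithelium and not of these whole glands, name SD rats. The deposited design text starts the exposure at gestation day 1 and gives its end as PND 23, while elsewhere the newborns receive AIN from PND 0. The methods of the study start the experimental diet before breeding and keep it through mating and pregnancy, with control diet after the birth. Whether these methods cover the libraries used here was not settled. Each library goes by its diet and its number, and no number occurs in both diets (HFB 1 to HFB 6, and control 7 to control 11 and control 14). Total counts lay between 2320267 and 2760871 with HFB (median 2660268) and between 2403464 and 2944680 with the control diet (median 2537563.5). A gene was called detectable in a library from 3 counts, which is between 0.949 CPM (control 7) and 1.304 CPM (control 9), with CPM as counts scaled to a common library total after TMM. Mammary epithelial markers checked the tissue label, and all 7 of the 7 found in the table had counts in every library, with Krt8 between 41.7 and 222 CPM.

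Interferons of type I act through the receptor pair Ifnar1 and Ifnar2 and interferon gamma through Ifngr1 and Ifngr2, and both routes use Jak kinases to activate Stat proteins. Promoters that answer to these routes carry the interferon-stimulated response element (ISRE), to which Stat2 and Irf9 are recruited, or the gamma-activated sequence (GAS), and the genes behind these elements encode RNA sensors, antiviral effectors, the ISG15 system, guanylate-binding proteins, the immunoproteasome and chemokines. In a mammary gland such genes can be transcribed by epithelium, fat, vessels and resident immune cells alike, and a whole-gland library sums over all of them.

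The promoters of the members are shown because the elements just named are what the list is known for. RefSeq windows of 250 bases before to 50 bases after the gene start (build GRCr8) were available for 31 of the 39 listed genes and for 27457 genes in all. The ISRE core, searched on both strands as GAAA, any 2 bases and GAAA again, lay in 19 of the 31 member windows (61.3%) and in 4.12% of all windows. An extended ISRE, which is the core followed by CT, lay in 9 member windows (29.0%) and in 0.295% of all windows. The GAS core TTCNNNGAA, which reads alike on both strands, lay in 10 member windows (32.3%) and in 9.39% of all windows. At least 1 ISRE core or GAS core was found in 24 of the 31 (77.4%), against 12.9% of all windows. The 24 ISRE core matches began between 243 bases before and 26 bases after the start, and 17 of them began within 100 bases before it. By role, the ISRE core was in 4 of the 5 windows of the immunoproteasome and peptide transporter genes, in 7 of 8 of the antiviral effectors and in 1 of 5 of the transcription factors, of which 3 had a GAS core instead (Irf1, Irf8 and Irf9). These matches describe the letters in the windows only. The 250 bases before the start are printed for the 5 members with an extended ISRE that had the most CPM on average, 5′ to 3′ on the strand of the gene, with the extended ISRE in capitals. Ifi27 lies at chr6:128355062-128355311 on the plus strand, Ifitm3 at chr1:205541759-205542008 on the minus strand, Bst2 at chr16:18254968-18255217 on the minus strand, Gbp2 at chr2:234005477-234005726 on the plus strand and Ifi44 at chr2:243303841-243304090 on the minus strand.
Ifi27: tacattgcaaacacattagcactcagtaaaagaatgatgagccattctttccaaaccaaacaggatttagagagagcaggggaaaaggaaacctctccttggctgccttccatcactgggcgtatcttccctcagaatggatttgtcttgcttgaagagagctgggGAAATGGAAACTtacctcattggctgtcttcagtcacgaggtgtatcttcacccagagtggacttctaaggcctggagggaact
Ifitm3: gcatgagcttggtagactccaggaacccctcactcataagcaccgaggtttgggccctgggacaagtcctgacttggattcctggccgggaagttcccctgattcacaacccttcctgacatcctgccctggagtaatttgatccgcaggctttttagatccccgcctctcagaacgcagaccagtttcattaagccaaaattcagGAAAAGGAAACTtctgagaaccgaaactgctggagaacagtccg
Bst2: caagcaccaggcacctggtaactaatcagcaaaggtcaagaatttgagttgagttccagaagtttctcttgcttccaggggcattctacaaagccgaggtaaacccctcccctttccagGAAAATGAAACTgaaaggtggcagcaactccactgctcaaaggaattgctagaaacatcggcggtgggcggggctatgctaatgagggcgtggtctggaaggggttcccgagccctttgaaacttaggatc
Gbp2: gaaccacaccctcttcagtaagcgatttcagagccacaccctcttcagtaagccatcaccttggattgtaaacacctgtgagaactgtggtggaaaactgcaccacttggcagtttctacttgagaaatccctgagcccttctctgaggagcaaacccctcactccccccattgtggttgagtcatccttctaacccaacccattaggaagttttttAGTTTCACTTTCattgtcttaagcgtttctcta
Ifi44: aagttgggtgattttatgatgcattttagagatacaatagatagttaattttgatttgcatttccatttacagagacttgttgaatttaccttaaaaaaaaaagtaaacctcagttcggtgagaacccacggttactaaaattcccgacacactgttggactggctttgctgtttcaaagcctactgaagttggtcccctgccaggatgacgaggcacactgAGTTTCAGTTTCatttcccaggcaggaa
A stretch of 30 bases around an ISRE core, in capitals, is printed for 4 members of the immunoproteasome and peptide transporter group and for Rsad2, whose library patterns are described below in different terms. Psmb8 is at chr20:4657016-4657045, Psmb10 at chr19:50743346-50743375, Tap1 at chr20:4668645-4668674, Tap2 at chr20:4652318-4652347 and Rsad2 at chr6:48788248-48788277, all on the minus strand.
Psmb8: gtgctgtggcTTTCGCTTTCacttccttgt
Psmb10: aagcaaaggcGAAAGTGAAAgagaagatgc
Tap1: cggtggctgcTTTCGGTTTCttcttcctct
Tap2: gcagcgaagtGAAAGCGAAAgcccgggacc
Rsad2: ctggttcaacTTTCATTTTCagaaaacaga

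**Figure D1:**
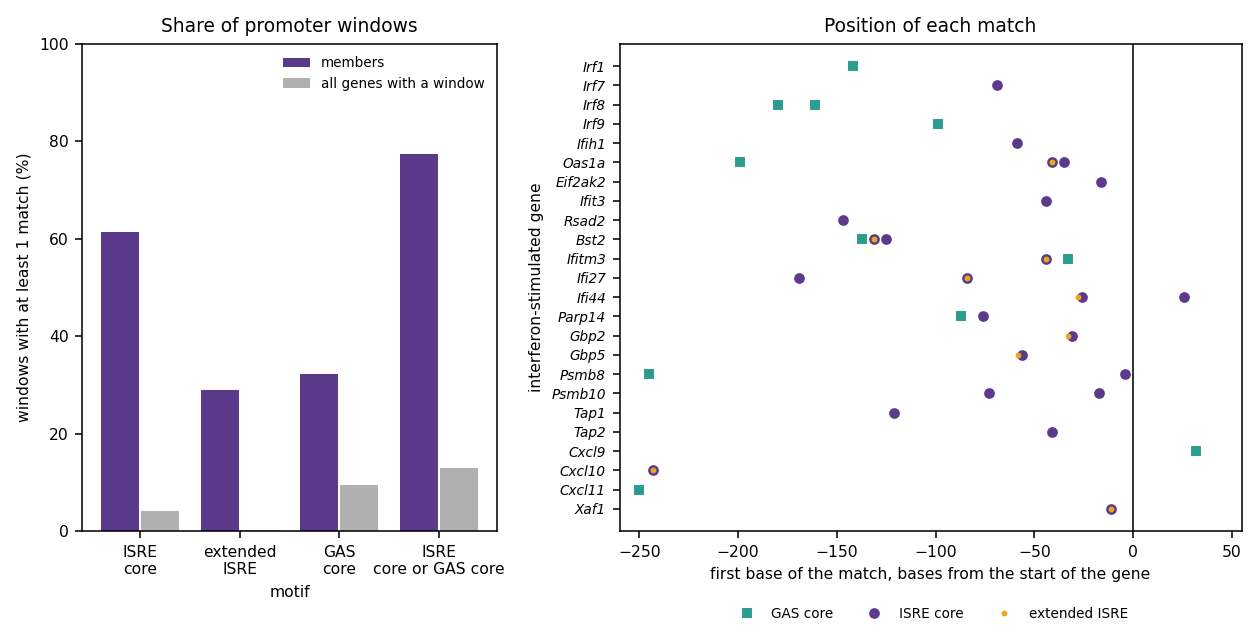
Left, percent of RefSeq promoter windows with at least 1 match to each motif, for the 31 members with a window (purple) and for all 27457 genes (gray); the ISRE core was in 61.3% and 4.12%. Right, first base of each match in bases from the gene start (0, vertical line), 1 row per member with a match; of 24 ISRE core matches, 17 began within 100 bases before the start.

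Libraries HFB 6 and control 14 stood apart from the rest. Both were far above the other libraries in lymphoid markers, of which 11 of 12 were found, all with counts. The summed level of the lymphoid list was 1268 CPM in HFB 6 and 1192 CPM in control 14. It was 327 CPM in HFB 1, 145 in HFB 2, 40.2 in HFB 3, 30.4 in HFB 4 and 32.1 in HFB 5. In the other control libraries it was 43.3 CPM (control 7), 20.6 (control 8), 82.6 (control 9), 58.3 (control 10) and 26.5 (control 11). Cd79b, which encodes part of the B cell receptor complex, had the most counts on the list, with 263 CPM in HFB 6, 231 CPM in control 14 and at most 21.4 CPM elsewhere. Not every gene of the list followed its sum, since Cd4 was lowest in HFB 6 (4.81 CPM) and highest in HFB 1 (45.2 CPM), and Ccr7 was at 15.6 CPM in HFB 6 against 36.2 CPM in HFB 1. The natural killer cell sum was also highest in HFB 6 and control 14, at 44.9 and 58.1 CPM against at most 16.5 CPM, with 6 of 7 markers found. Of these, Klrb1 was at 0 in all libraries, Gzmb was at 0 in this pair and Ncr1 was highest in HFB 5 (0.774 CPM). Dendritic cell markers, 5 of 7 found, summed to 25.7 and 28.9 CPM against at most 16.0 CPM, although Zbtb46, the gene of that list with the most counts, was lowest in HFB 6 (0.802 CPM) and at 2.82 CPM in control 14. Endothelial markers, 5 of 7 found, summed to 483 and 519 CPM against at most 269.99 CPM, of which Pecam1 made up 256 and 240 CPM. Cdh5 and Tek did not follow this sum. Cdh5 was lowest in HFB 6 (2.81 CPM) and at 27.5 CPM in control 14. Tek was highest in HFB 4 (70.5 CPM), with 46.1 CPM in HFB 6 and 51.1 CPM in control 14. The mammary epithelial sum was highest in HFB 6 and control 14 too, by less, at 676 and 655 CPM against 615 CPM in HFB 5. Epcam and Cdh1 of that list did not follow its sum. Epcam was highest in control 7 (96.8 CPM), with 51.3 CPM in HFB 6 and 77.8 CPM in control 14. Cdh1 was also highest in control 7 (64.2 CPM), with 38.1 CPM in HFB 6 and 50.7 CPM in control 14. The macrophage list did not move as a whole, since Marco was at 40.1 and 31.3 CPM against at most 2.47 CPM, while Cd163 (22.9 and 9.51 CPM) and Mrc1 (42.9 and 32.0 CPM) were lowest in this pair. The adipocyte list, 7 of 7 found and led by Fabp4, was lowest in these libraries, at 17769 CPM in HFB 6 and 14439 CPM in control 14 against 27373 CPM or more in the other 10. In bulk libraries such as these, fewer cells of a type and less RNA per cell cannot be told apart. None of the 9 marker scores, each the mean log2 CPM of its list, differed between the diets beyond the spread of the libraries (two-sided exact permutation tests, smallest p = 0.121 for the macrophage score, adjusted p = 0.783). That score was 5.81 ± 0.315 with HFB and 5.56 ± 0.162 with the control diet (SD, n = 6 each), and it was above the control median in 5 of 6 HFB libraries.

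Members were high in the same pair of libraries more often than genes at large. HFB 6 was the highest library for 14 of the 31 tested members (45.2%), against 23.1% of the 9382 genes tested. Control 14 was the highest for 10 members (32.3%), against 15.2% of all genes. The lowest library was HFB 1 for 7 members (6.91% of all genes), HFB 5 for 7 (10.8%) and HFB 6 for 2 (25.2%). HFB 6 and control 14 together held the top places for 17 members (54.8%), against 22.3% of all genes. These 17 were Irf1, Irf7, Stat2, Dhx58, Adar, Mx1, Mx2, Bst2, Ifitm1, Ifi44, Isg15, Ifi35, Psmb8, Psmb9, Psmb10, Tap1 and Tap2. Of the other members, Gbp5, Irf8 and Parp14 had control 14 and HFB 1 on top, Ifi27 and Ifitm3 had HFB 6 and HFB 5, and Rsad2 had HFB 2 and control 9. The SD of log2 CPM over the 12 libraries had a median of 0.626 over the members and 0.4 over all genes, and 20 of the 31 members lay above the latter. Without HFB 6 and control 14 the medians were 0.322 and 0.288.

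**Figure D2:**
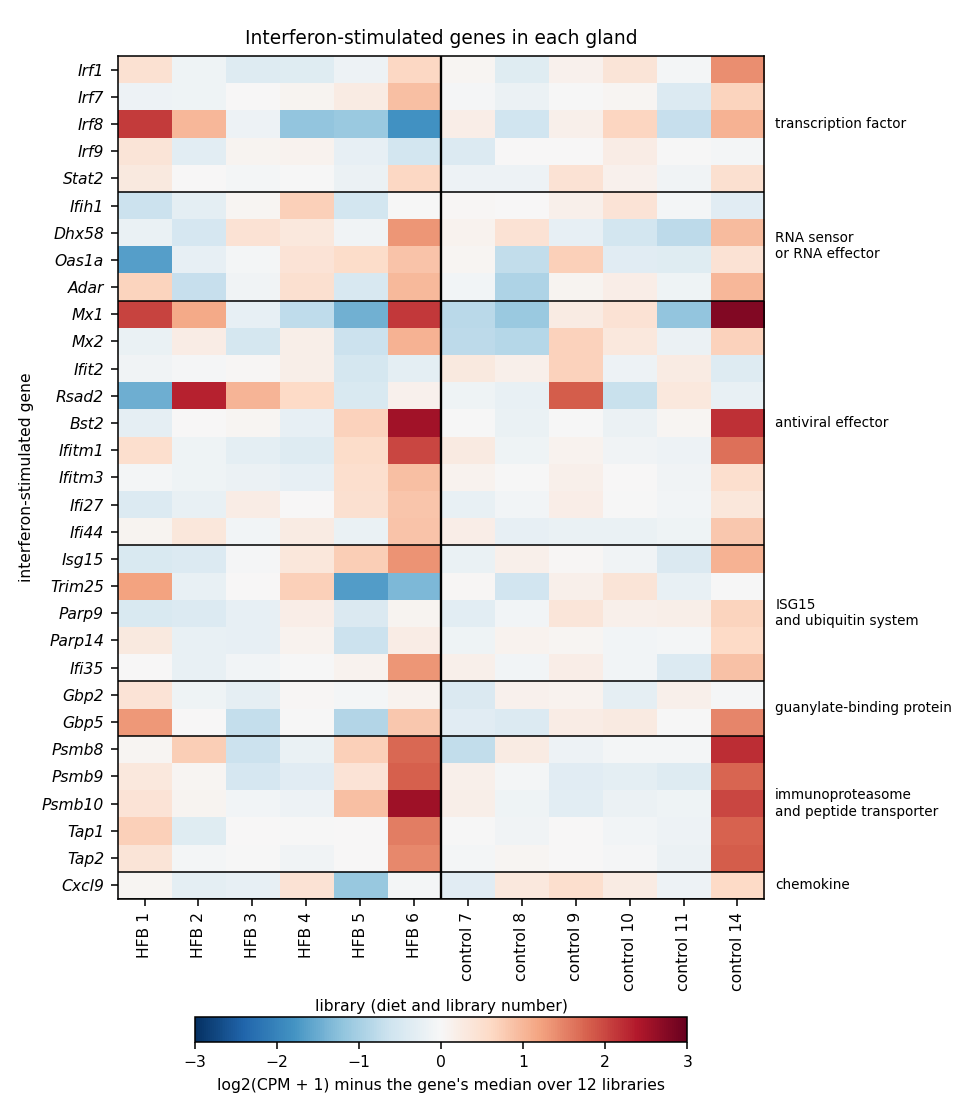
Level of the 31 tested members (rows, by role) in the 12 libraries (columns), as log2(CPM + 1) minus the median of the gene; red is above and blue below its median. HFB 6 and control 14 are red for all 5 immunoproteasome and peptide transporter genes, and they were the top libraries for 17 of the 31 members; Rsad2 is reddest in HFB 2 (68.5 CPM) and control 9 (48.7 CPM).

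The diets were compared to see whether HFB exposure moved the interferon-stimulated genes of the gland, and none of them passed a threshold. No member had an adjusted p under 0.05 in edgeR's quasi-likelihood test, where 0 of 9382 genes (0%) did, and every tested member had an adjusted p of 0.999. At an unadjusted p under 0.05 there were 0 of 31 members, against 220 of all genes (2.34%), 1.3% higher and 1.04% lower with HFB. DESeq2 also gave 0 members at either threshold, with 2.92% of its genes at an unadjusted p under 0.05, as did limma voom with 6.53%. For another comparison, in dissected epithelium, the study's methods state a rule of p under 0.05 with a fold change above 2. Applied here to the unadjusted p, that rule took 0 members and 11 genes (0.117%). At the same unadjusted threshold, 0 members passed with DESeq2 size factors in edgeR (2.4% of all genes), without a filter (2.25%), with the macrophage score as a covariate (1.3%) and without HFB 6 and control 14 (4.59%). Parp9 passed with at least 10 counts in every library (2.84%) and with upper-quartile scaling (2.27%), and Parp9 and Irf1 with the lymphoid score (3.82%). With 1 library left out, Parp9 passed without HFB 4 (4.12%), HFB 6 (2.85%), control 7 (1.49%) or control 8 (2.85%), and Mx1 and Psmb10 without control 14 (6.2%). No member passed without HFB 1 (3.99%), HFB 2 (2.36%), HFB 3 (1.77%), HFB 5 (1.42%), control 9 (1.9%), control 10 (1.49%) or control 11 (1.44%). Diet groups did not overlap in CPM for 0 members and 10 genes (0.107%). The log2 fold change, HFB minus control, was above 0 for 21 members and below 0 for 10, with a median of 0.13 and a range from -0.40 (Cxcl9) to 0.47 (Psmb10). Over all genes the median was 0.00. The median of the members was -0.20 without HFB 6, 0.34 without control 14 and 0.11 without both, so its sign turned on 1 library. Without both, 8 of the 31 members changed direction, namely Stat2 and Psmb8, given below, Irf9 (0.05), Mx2 (-0.12), Ifitm3 (-0.02), Ifi35 (-0.003115), Gbp5 (0.235) and Tap2 (0.10). It was -0.01 with the lymphoid score as a covariate and -0.16 with the macrophage score. For 17 of the 31 members the 95% interval lay within 1 log2 unit of 0 on both sides, and for the other 14 a change of 2-fold lay inside it.

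**Figure D3:**
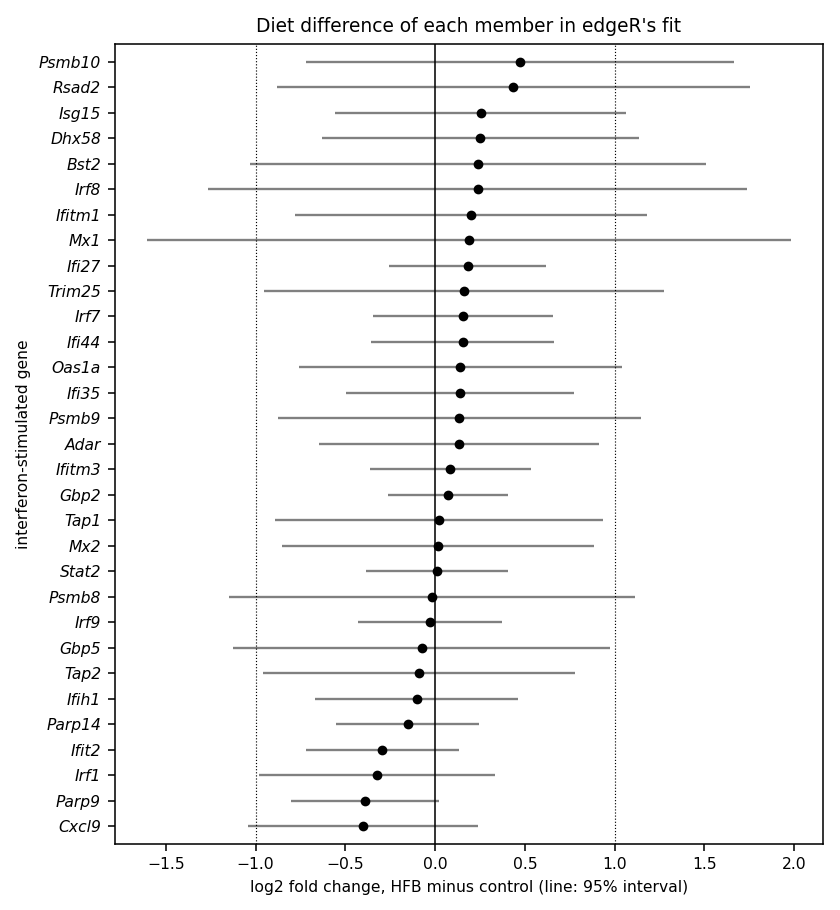
Log2 fold change of each tested member, HFB minus control, in edgeR's fit over 12 libraries (point), with its 95% interval (line); dotted lines mark a change of 2-fold. The points run from -0.40 (Cxcl9) to 0.47 (Psmb10), and every interval includes 0.

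Among the transcription factors, 5 of 5 were tested, 3 with a log2 fold change above 0 and 2 below, and their median was 0.01. Irf1, which is induced by interferon gamma and in turn drives antigen presentation genes, lay between 21.8 and 44.9 CPM with HFB (median 26.2) and between 22.1 and 77.5 CPM with the control diet (median 30.9). The high value was control 14, followed by HFB 6 at 44.9 and HFB 1 at 40.3 CPM, and the groups overlapped. Between the diets the log2 fold change of Irf1 was -0.33 (standard error 0.30), 0.03065 without control 14 and -0.13 without HFB 6 and control 14. With the lymphoid score as a covariate it was -0.41 (standard error 0.14, adjusted p = 0.999), past the unadjusted threshold of 0.05 in a fit where 3.82% of all genes were. Irf8, a factor of myeloid and B cells, lay between 0.802 and 26.3 CPM with HFB (median 3.31) and between 2.95 and 11.97 CPM with the control diet (median 6.21). HFB 1 was highest and HFB 6 lowest, with 2 counts, which is under the detectable level, so Irf8 did not share the pattern of HFB 6. Irf8 had an estimated log2 fold change of 0.24 (standard error 0.70), -0.68 without HFB 1 and 0.73 without HFB 6 and control 14. Stat2, which carries the activation domain of the complex it forms with Irf9, lay between 31.3 and 55.3 CPM with HFB (median 35.5) and between 31.6 and 50.01 CPM with the control diet (median 35.9). Its groups overlapped over nearly their whole range, with a log2 fold change of 0.01 (standard error 0.18), or -0.02 without HFB 6 and control 14. Irf9, the DNA-binding subunit, ranged from 14.8 to 29.2 CPM and was highest in HFB 1. Irf7, which amplifies type I interferon transcription, ranged from 16.9 to 43.3 CPM and was highest in HFB 6, with control 14 next at 36.3 CPM.

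RNA sensors and RNA effectors had 6 of 6 genes in the table, of which 4 were tested. Adar, which edits adenosine to inosine in double-stranded RNA, lay between 8.57 and 29.3 CPM with HFB (median 16.8) and between 7.11 and 29.9 CPM with the control diet (median 14.4). Control 14 and HFB 6 were nearly equal on top and HFB 1 followed at 23.4 CPM, with a log2 fold change of 0.13 (standard error 0.36) between the diets and 0.21 without that pair. Ifih1, a sensor of long double-stranded RNA, ranged from 6.17 to 17.2 CPM and was highest in HFB 4. Dhx58, a regulator of that sensor, ranged from 2.95 to 16.0 CPM and was highest in HFB 6, with control 14 at 12.3 CPM. Oas1a, which makes the oligoadenylates that switch on RNase L, ranged from 1.65 to 14.03 CPM. Reads of Oas1a are uncertain, since close copies of the Oas1 family exist in the rat and the treatment of shared reads is not stated. Oasl had between 2 and 12 counts in a library and was highest in HFB 6 and control 14 (4.81 and 4.23 CPM). Eif2ak2, the kinase that halts translation in infected cells, had 0 counts in all 12 libraries, which allows a level of up to 1.304 CPM where the detectable level was highest (control 9).

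Antiviral effectors included the member with the largest spread between libraries. Of the 12 listed genes, 11 were in the table and 9 were tested, 8 with a log2 fold change above 0 and 1 below. Mx1, a dynamin-like GTPase that traps viral nucleoproteins, lay between 2.32 and 38.1 CPM with HFB (median 12.7) and between 2.95 and 60.9 CPM with the control diet (median 6.84). It was high in control 14 (60.9), HFB 6 (38.1), HFB 1 (35.4) and HFB 2 (18.9) and at most 11.1 CPM in the other 8, and the groups overlapped. Its SD of log2 CPM over the libraries, 1.48, was the largest of the tested members. The log2 fold change of Mx1 was 0.19 (standard error 0.83) over 12 libraries and 1.12 (standard error 0.65) without HFB 6 and control 14. Without control 14 alone it was 1.53 (standard error 0.70, adjusted p = 0.684), past the unadjusted threshold in a fit where 6.2% of all genes were, and without HFB 6 it was -0.20. Mx2, its neighbour on the chromosome, ranged from 3.56 to 16.0 CPM and was highest in HFB 6.

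Bst2, or tetherin, which holds budding virions at the cell surface, lay between 35.8 and 255 CPM with HFB (median 44.5) and between 37.9 and 204 CPM with the control diet (median 43.3). HFB 6 and control 14 held the high values, and the other 10 libraries ended at 70.8 CPM (HFB 5). Bst2 was 5.90 times the median of these 10 in HFB 6 and 4.72 times in control 14. The log2 fold change of Bst2 was 0.24 (standard error 0.59), 0.16 (standard error 0.18) without both libraries and -0.57 without HFB 6. Ifitm1, which blocks the fusion of viral and cell membranes, ranged from 37.2 to 197 CPM, with HFB 6 highest and control 14 next at 156 CPM. Ifitm3, which acts at endosomes, ranged from 239 to 536 CPM, with HFB 6 on top and HFB 5 (405 CPM) just above control 14 (403 CPM). Ifitm1 and Ifitm3 lie next to each other in the order of genes and are similar in sequence, so their split of reads is uncertain.

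Ifi27, an interferon-induced protein of mitochondrial and nuclear membranes, lay between 413 and 973 CPM with HFB (median 595) and between 467 and 690 CPM with the control diet (median 531). HFB 6, HFB 5 (766 CPM) and control 14 were the highest, and the groups overlapped, with means of 636 ± 207 and 560.3 ± 82.5 CPM (SD, n = 6 each). For Ifi27 the log2 fold change was 0.18 (standard error 0.20), or 0.09 without HFB 6 and control 14 and 0.0208 without HFB 6 alone, and 4 of 6 HFB libraries lay above the control median. Ifi44 ranged from 23.3 to 51.3 CPM, highest in HFB 6 and control 14 (50.01 CPM), and its log2 fold change was 0.15 (standard error 0.24), or 0.20 without them.

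Rsad2, or viperin, which makes a chain-terminating nucleotide, went with other libraries. It lay between 4.11 and 68.5 CPM with HFB (median 17.2) and between 7.79 and 48.7 CPM with the control diet (median 11.4). HFB 2 and control 9 were the high libraries, HFB 3 followed at 27.3 CPM, and HFB 6 and control 14 were at 14.4 and 10.9 CPM. That pair of top libraries was found for 1.07% of all genes. The log2 fold change of Rsad2 was 0.44 (standard error 0.61), and it was -0.23 without HFB 2. HFB 2 and control 9 were also highest in red blood cell markers, of which 5 of 6 were found, led by Hbb, with summed levels of 82669 and 51459 CPM. In the other HFB libraries the sum was 9284 CPM (HFB 1), 27240.1 (HFB 3), 26595 (HFB 4), 29660.2 (HFB 5) and 27213 (HFB 6). In the other control libraries it was 11102 CPM (control 7), 11639 (control 8), 7995 (control 10), 12951 (control 11) and 12311 (control 14). The part of red blood cell content in the level of Rsad2 was not tested beyond the relation given below.

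Of the Ifit genes, whose proteins bind foreign RNA ends, only Ifit2 was tested, and it did not follow HFB 6 and control 14. Ifit2 lay between 19.3 and 32.6 CPM with HFB (median 27.1) and between 21.5 and 47.0 CPM with the control diet (median 32.9). Control 9 was highest and HFB 5 lowest, 0 of 6 HFB libraries lay above the control median, and the groups still overlapped. For Ifit2 the log2 fold change was -0.30 (standard error 0.20), and it was -0.35 (standard error 0.18) without HFB 6 and control 14 and -0.16 without control 9. Ifit3 had between 2 and 11 counts in a library, and Ifit1 had at most 1 count, in control 9 and in control 11. These counts are too few to show whether either gene followed HFB 6 and control 14. The Ifit genes are neighbours and copies of each other, and the split of their reads is uncertain.

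**Figure D4:**
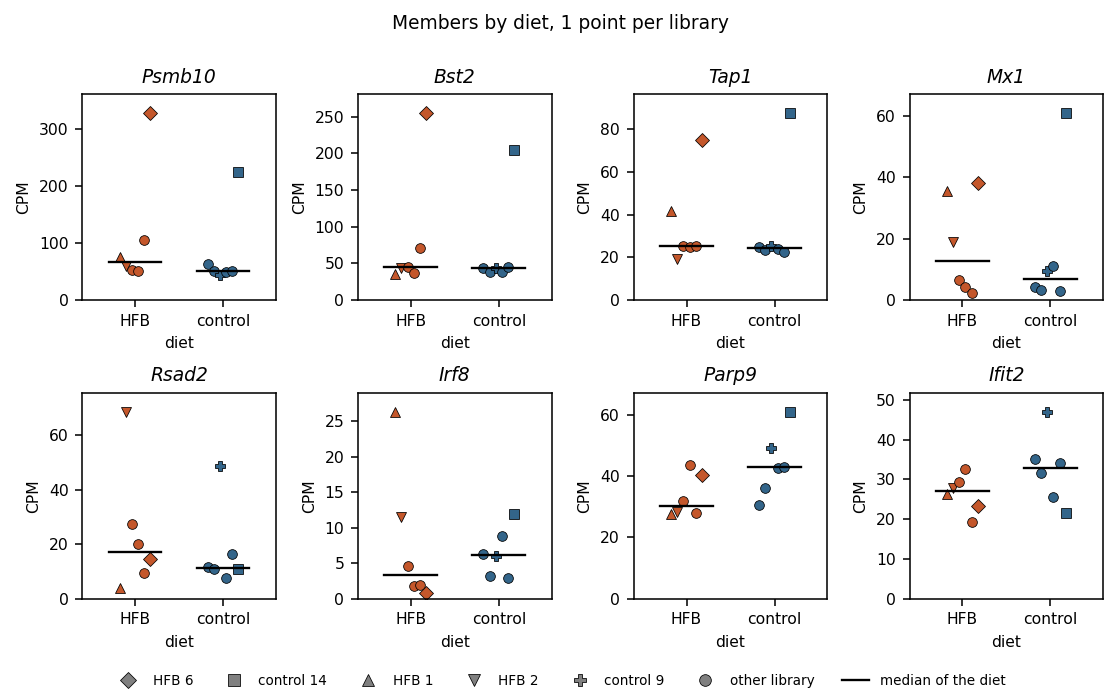
CPM of 8 members in each library (points; HFB in orange, control in blue, with HFB 1, HFB 2, HFB 6, control 9 and control 14 given their own symbols) and the median of each diet (line); axes start at 0. The diets overlap in every panel; HFB 6 and control 14 stand out for Psmb10 (328 and 225 CPM), Bst2 (255 and 204 CPM) and Tap1 (75.0 and 87.7 CPM), and HFB 2 and control 9 for Rsad2 (68.5 and 48.7 CPM).

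The ISG15 and ubiquitin group held the member with the smallest p. Parp9, an ADP-ribosyltransferase partner of the ubiquitin ligase Dtx3l, lay between 27.6 and 43.7 CPM with HFB (median 30.1) and between 30.7 and 60.9 CPM with the control diet (median 42.8). Only HFB 4 of the HFB libraries lay above the control median, and the groups overlapped between 30.7 and 43.7 CPM. Its means were 33.3 ± 7.06 and 43.7 ± 10.6 CPM (SD, n = 6 each). The estimate was a log2 fold change of -0.39 (standard error 0.19, 95% interval -0.80 to 0.02, adjusted p = 0.999). Parp9 had an unadjusted p under 0.05 in 7 of the alternative fits, in which between 1.49% and 4.12% of all genes had one. Its estimates in those 7 lay between -0.49 and -0.40, and the smallest adjusted p among them was 0.966. Over all 21 alternatives they reached from -0.49 to -0.26, the latter without control 14. Parp14, its neighbour in the order of genes, lay between 30.6 and 59.2 CPM with HFB (median 46.5) and between 44.3 and 72.9 CPM with the control diet (median 48.2). Control 14 was highest, HFB 1 and HFB 6 followed, and the log2 fold change was -0.15 (standard error 0.18), or -0.09 without HFB 6 and control 14 and -0.0179 without control 14 alone.

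Isg15, the ubiquitin-like protein that is conjugated to targets after interferon, ranged from 6.17 to 24.1 CPM and was highest in HFB 6, control 14 (19.4 CPM) and HFB 5 (15.5 CPM). For Isg15 the log2 fold change was 0.25 (standard error 0.38), or 0.23 without HFB 6 and control 14. Usp18, which removes Isg15 and dampens receptor signalling, had 0 to 51 counts in a library and did not pass the filter. It was at 20.4 CPM in HFB 6 and 15.8 CPM in control 14 and at most 3.48 CPM elsewhere, and HFB 5 had 0 counts. Trim25, a ubiquitin ligase, ranged from 0.774 to 11.9 CPM and had its highest level in HFB 1, where Irf8 was also highest. Ifi35 ranged from 26.1 to 89.0 CPM, with control 14 (64.4 CPM) after HFB 6 and no other library above 40.0 CPM.

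The guanylate-binding proteins, GTPases that attack pathogen vacuoles, differed in how much they varied between libraries. Gbp2 lay between 34.7 and 55.9 CPM with HFB (median 41.6) and between 31.0 and 46.8 CPM with the control diet (median 43.4). HFB 1 was highest, HFB 6 and control 14 lay among the others, and its SD of log2 CPM, 0.228, was the smallest of the tested members. Gbp2 had an estimated log2 fold change of 0.07 (standard error 0.15). Gbp5 ranged from 2.32 to 15.8 CPM, with control 14 highest, HFB 1 next at 13.98 CPM and a log2 fold change of -0.07 (standard error 0.49), or 0.235 without HFB 6 and control 14.

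All 5 immunoproteasome and peptide transporter genes, which cut and move peptides for MHC class I, had HFB 6 and control 14 as their top libraries. Their summed level was 772 CPM in HFB 6 and 766 CPM in control 14, and between 163 and 286 CPM in the other 10. Psmb10, a catalytic subunit, lay between 50.1 and 328 CPM with HFB (median 66.8) and between 43.9 and 225 CPM with the control diet (median 50.2). HFB 5, at 104 CPM, was the next library, and 5 of 6 HFB libraries lay above the control median, with the groups overlapping. For Psmb10 the log2 fold change was 0.47 (standard error 0.55) over 12 libraries and 0.41 (standard error 0.20) without HFB 6 and control 14. Without control 14 alone it was 1.15 (standard error 0.47, adjusted p = 0.684), past the unadjusted threshold, and without HFB 6 it was -0.24. Psmb8, another catalytic subunit, lay between 28.9 and 153 CPM with HFB (median 61.6) and between 26.9 and 217 CPM with the control diet (median 44.0). Control 14 was above HFB 6 for this gene, HFB 2 and HFB 5 followed at 77.1 and 75.8 CPM, and the groups overlapped. Psmb8 had an estimated log2 fold change of -0.02 (standard error 0.52), and 0.36 (standard error 0.27) without both libraries. Psmb9 ranged from 26.1 to 132 CPM, with HFB 6 highest, control 14 at 127 CPM and HFB 5 next at 49.5 CPM. Tap1, a subunit of the transporter that carries peptides into the endoplasmic reticulum, ranged from 19.3 to 87.7 CPM and was 3.02 times the median of the other 10 libraries in HFB 6 and 3.53 times in control 14. Tap2, the other subunit, ranged from 27.0 to 110.2 CPM and was 2.80 times that median in HFB 6 and 3.65 times in control 14. Tap2, Psmb8, Tap1 and Psmb9 lie within a few genes of each other on chromosome 20, whereas Psmb10 is on chromosome 19. By summed CPM, the lymphoid, natural killer cell, dendritic cell, endothelial and mammary epithelial lists were highest and the adipocyte list lowest in HFB 6 and control 14. By score, though, the endothelial list was higher in control 9 (5.76) and control 11 (5.70) than in HFB 6 (5.65). Single genes did not follow these sums, among them Epcam and Cdh1 of the mammary epithelial list and Cdh5 and Tek of the endothelial list, as given above. The part of cell content in the levels of the immunoproteasome and transporter genes was not tested beyond the relations given below.

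Of the chemokines that draw T cells through Cxcr3, Cxcl9 was tested and Cxcl10 and Cxcl11 did not pass the filter. Cxcl9 lay between 2.71 and 10.03 CPM with HFB (median 6.33) and between 5.38 and 11.3 CPM with the control diet (median 8.81). HFB 4 was the HFB library above the control median, control 14 and control 9 were highest, and the groups overlapped. Cxcl9 had an estimated log2 fold change of -0.40 (standard error 0.30), or -0.25 without HFB 5 and -0.19 in limma. Cxcl10 had at most 11 counts in a library and Cxcl11 at most 9, and in CPM both were highest in HFB 6 and next in control 14.

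Levels of the 31 tested members were set beside the 9 marker scores over the 12 libraries, which gave 279 relations adjusted together, and the labels name no batch within which they could be repeated. Relations that passed an adjusted p of 0.05 by both Pearson's r and Spearman's rho were found for Mx1, Irf1 and Rsad2. Mx1 followed lymphoid markers with r = 0.953 (p = 2e-05 by permutation, 0.00279 adjusted) and rho = 0.909 (p = 0.00019, 0.0481 adjusted), and leaving out HFB 6 and control 14 gave r = 0.922. It also followed dendritic cell markers with r = 0.913 (p = 2e-05 by permutation, 0.00279 adjusted) and rho = 0.881 (p = 0.00042, 0.0481 adjusted), and r was 0.856 once the same libraries were left out. The relation of Mx1 to lymphoid markers therefore also held over the 10 libraries in which these markers were lower. Mx1 was not alone in this, since Irf8 had r = 0.920 with lymphoid markers over these 10, although its r over all 12 was 0.330 and did not pass. Irf1 followed natural killer cell markers with r = 0.895 (p = 0.00012 by permutation, 0.00558 adjusted) and rho = 0.853 (p = 0.00069, 0.0481 adjusted), and r was 0.754 once HFB 6 and control 14 were left out. Irf1 was not tied to that list alone, with r = 0.880 for dendritic cell and 0.846 for lymphoid markers (0.0122 and 0.0123 adjusted, by permutation). Those relations passed by Pearson's r only (rho = 0.629 and 0.776). Counts of the natural killer cell list were low, with Klrb1 at 0 and Ncr1 and Gzmb at 2 or fewer in a library. Rsad2 followed red blood cell markers with r = 0.890 (p = 0.0001 by permutation, 0.00558 adjusted) and rho = 0.860 (p = 0.00067, 0.0481 adjusted), and r was 0.674 once HFB 2 and control 9 were left out. Other relations passed by Pearson's r alone. The adipocyte score had 15 such members, all negative among the immunoproteasome and transporter genes, the natural killer cell score 13, the lymphoid score 12 and the dendritic cell score 11, counting those above. The endothelial score had 3 and the skeletal muscle score 1 (Irf8, r = -0.728). Such relations were not counted over all genes, of which 22.3% had HFB 6 and control 14 as their top libraries. These counts therefore do not show whether the members differ from other genes. Once HFB 6 and control 14 were left out, r was still 0.5 or more in size for 6 of the 12 lymphoid, 7 of the 11 dendritic cell, 8 of the 13 natural killer cell and 4 of the 15 adipocyte relations. Tap2 and the lymphoid score are an example of these, with r = 0.877 (p = 0.00031 by permutation, 0.00961 adjusted), rho = 0.678 (p = 0.0185, 0.25 adjusted) and r = 0.727 over the other libraries. Psmb10 and the lymphoid score are an example of the rest, with r = 0.797 (p = 0.00456 by permutation, 0.0321 adjusted), rho = 0.524 (p = 0.0834, 0.364 adjusted) and r = 0.246 once HFB 6 and control 14 were left out, so that relation rests on these libraries. Psmb10 ran against adipocyte markers with r = -0.959 (p = 0.0001 by permutation, 0.00558 adjusted) and rho = -0.832 (p = 0.00134, 0.0748 adjusted), and r was -0.728 over the other 10 libraries. Parp9 followed endothelial markers with r = 0.853 (p = 0.00056 by permutation, 0.0122 adjusted) and rho = 0.769 (p = 0.00508, 0.108 adjusted), and r was 0.703 once HFB 5 and control 14 were left out. No member passed with the macrophage or the mammary epithelial score.

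**Figure D5:**
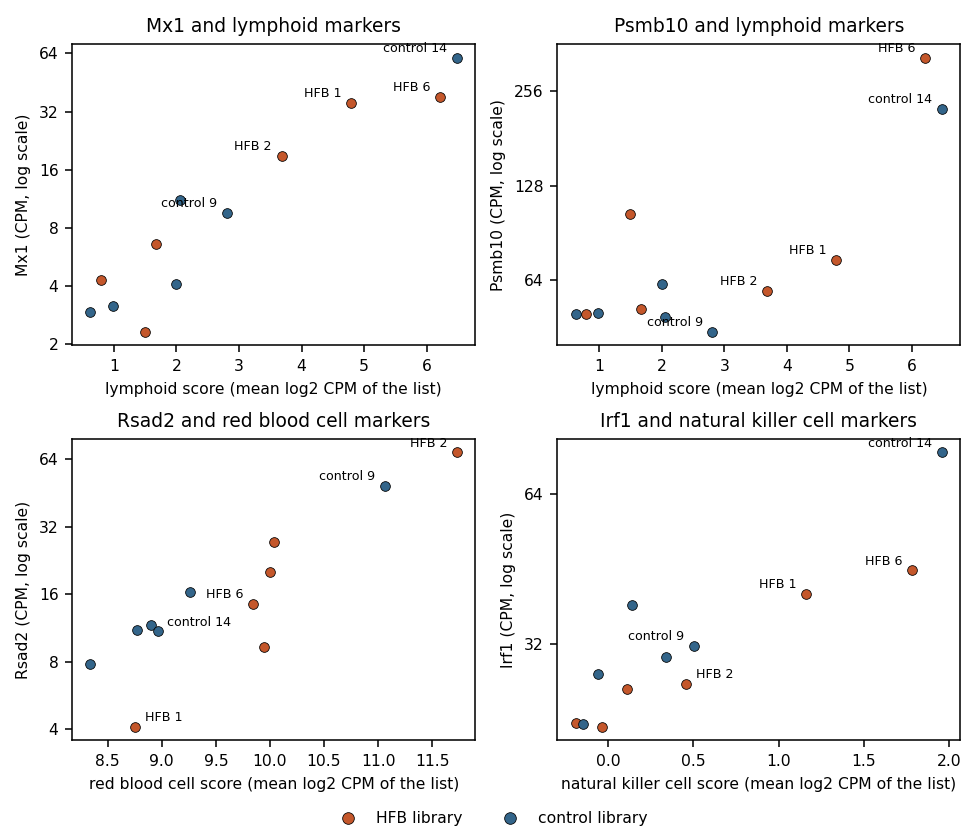
CPM of a member (vertical, log scale) against a marker score (horizontal, mean log2 CPM of the list) in the 12 libraries, HFB in orange and control in blue. Mx1 is highest in the libraries with the most lymphoid markers, without a steady rise at low scores (r = 0.953, and 0.922 without HFB 6 and control 14). Psmb10 is set apart by HFB 6 and control 14 (r = 0.797 and 0.246). Rsad2 rises to HFB 2 and control 9 with red blood cell markers (r = 0.890 and 0.674), and Irf1 rises with natural killer cell markers (r = 0.895 and 0.754).

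The genes upstream of the members and further genes of the interferon response, 80 listed and 61 in the table, were compared between the diets as well. Of the 50 tested, 0 were higher and 1 was lower with HFB at an unadjusted p under 0.05, a threshold that 2.34% of all genes passed. That gene was Erap1, which trims peptides for MHC class I, at 67.9 to 87.4 CPM with HFB (median 77.1) and 82.9 to 108 CPM with the control diet (median 96.5). The groups overlapped little, with a log2 fold change of -0.32 (standard error 0.11, adjusted p = 0.999). The lack of calls does not show that the other pathway genes stayed level. A change of 2-fold lay inside the 95% interval of the log2 fold change for some, such as Sting1 (-2.058 to 1.796) and Ikbke (-1.096 to 1.37). It lay outside the interval for others, such as Stat3 (-0.4443 to 0.1399), and the genes of each kind were not counted. Of 10 listed interferons 5 were in the table, and the others were not analysed here. Ifng, Ifnb1, Ifna4 and Ifna5 had 0 counts in all 12 libraries, and Ifnk had counts in 4 libraries, at most 2 in each. Of 6 listed receptor genes 5 were in the table, and Ifnar2 was not analysed here. Ifnar1 ranged from 42.9 to 86.0 CPM, with HFB 5 and HFB 6 lowest, and its log2 fold change was -0.05 (standard error 0.18). Ifngr1 ranged from 141 to 228 CPM, highest in control 14 and HFB 6, with a log2 fold change of 0.01 (standard error 0.16). Ifngr2 ranged from 32.1 to 53.8 CPM and Il10rb from 14.8 to 30.8 CPM, and both were lowest in HFB 6. Ifnlr1, the receptor for lambda interferons, had at most 5 counts.

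Stat3, a further target of Jak kinases, lay between 82.7 and 116 CPM with HFB and between 89.2 and 146.5 CPM with the control diet, with a log2 fold change of -0.15 (standard error 0.14). Jak1 was at 25.7 CPM in HFB 6 and 61.1 CPM in HFB 5 and between 109.9 and 234 CPM in the other 10 libraries. HFB 6 was the lowest library for 25.2% of all genes and HFB 5 for 10.8%. Named after their values were seen, Irf3, Ikbke, Sting1 and Ifi27l2b had the pattern of the immunoproteasome genes. Irf3, the factor that starts interferon transcription, was at 374 CPM in HFB 6, 306 CPM in control 14 and at most 77.0 CPM elsewhere. Ikbke, a kinase of Irf3, was at 158 and 129 CPM against at most 30.3 CPM, and Sting1, the adaptor of DNA sensing, at 71.0 and 76.8 CPM against at most 15.2 CPM. Across the 50 tested pathway genes, 17 had HFB 6 and control 14 as their top libraries (34.0%), against 22.3% of all genes.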

How the data were processed

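The deposited unit is raw read counts per Entrez gene. Per the processing notes of the authors, reads were made with bcl2fastq and CASAVA 1.8, aligned to rn4 with TopHat and compared with DESeq; the counting program, its annotation and the use of strand are not given in the sources used here. Of 16511 genes in 12 libraries, 16351 were matched to a symbol through RefSeq (GRCr8), 2954 had 0 counts in all libraries, and columns not mapped numbered 0. Close copies (the Oas1, Ifit, Ifitm, Mx, Gbp and Ifi27 families) may share reads.

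Counts were scaled by TMM and tested with the quasi-likelihood test of edgeR 4.0.16 under R 4.3.3, after its filter on low counts (9382 genes), with p adjusted by Benjamini and Hochberg at 0.05. A rule of p under 0.05 with a fold change above 2, which the study's methods state for dissected epithelium, was applied as well. It was applied to the unadjusted p. Alternatives were DESeq2 1.42.0, limma 3.58.1 voom with sample quality weights, DESeq2 size factors, upper-quartile scaling, leaving out the filter, a filter of 10 counts or more in each library, the lymphoid or macrophage score as a covariate, each library left out, and HFB 6 and control 14 left out together. Marker scores are means of log2 CPM with a prior count of 2, compared by exact permutation over all assignments of 6 against 6 (smallest possible p 0.0022) and adjusted over 9 lists. Relations used 100000 resamples (smallest possible p 1e-05) in Python 3.11.15 with scipy 1.17.1.

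Members named with the values of both diets were those with the 6 smallest p, the 6 largest SD of log2 CPM, or the most counts of their role, 15 in all. The members and lists were chosen with earlier results of these data known, and the counts of library order, the relations to markers and the pathway genes named as such were chosen after the values were seen.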

Additional observations from a re-analysis of the deposited data

Results flagged for a closer look

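A library was marked by Dixon's outlier test when it stood apart from the other 5 of its diet, over 80 groups (the 31 tested members, by log2 CPM, and the 9 marker scores, in each diet). It marked 18 groups. Chance alone marks about 1 in 20, or 4 of 80, if the groups are independent. They share the same 12 libraries, so the 18 cannot be read against that number. Among the 18 marked groups, the marked library was control 14 in 13, HFB 6 in 4 and control 9 in 1. The test was not run over all genes, of which 23.1% were highest in HFB 6 and 15.2% in control 14.

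In HFB 6, Bst2 was at 255 CPM (next HFB 5 at 70.8), Ifi35 at 89.0 (next HFB 5 at 37.5) and Tap2 at 84.6 (next HFB 1 at 40.3). The adipocyte score was low there, at 9.18 (next HFB 5 at 10.63).

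In control 14, Bst2 was at 204 CPM (next control 11 at 45.5), Ifitm1 at 156 (next control 7 at 58.5), Parp14 at 72.9 (next control 8 at 52.2) and Gbp5 at 15.8 (next control 10 at 6.31). Psmb8 was at 217 CPM (next control 8 at 54.1), Psmb9 at 127 (next control 7 at 41.8) and Psmb10 at 225 (next control 7 at 62.3). Tap1 was at 87.7 CPM (next control 9 at 25.2) and Tap2 at 110.2 (next control 8 at 32.0). The lymphoid score was 6.48 (next control 9 at 2.81), the dendritic cell score 2.62 (next control 10 at 1.34) and the natural killer cell score 1.96 (next control 9 at 0.50). The adipocyte score was low, at 9.21 (next control 7 at 10.72).

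In control 9, the red blood cell score was 11.06 (next control 11 at 9.26).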

How the results depend on the processing

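No member had an adjusted p under 0.05 in any alternative. Genes with an unadjusted p under 0.05 numbered 431 without HFB 6 and control 14, 613 in limma, 358 with the lymphoid and 122 with the macrophage score as a covariate, and 135 to 587 with 1 library left out. Members lower at that threshold were 1 under the filter of 10 counts, 2 with the lymphoid score and 1 with upper-quartile scaling. With 1 library left out, 0 to 2 members were higher, 0 to 1 lower and 0 to 2 past the rule with a fold change above 2. The 2 past that rule, Mx1 and Psmb10, were in the fit without control 14, where 6.2% of all genes had an unadjusted p under 0.05. The share of all genes past the rule there was not counted, so these 2 have no background to be read against. The share of windows with an ISRE was 29.0% for the extended form.

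Log2 fold changes of the 15 members named with both diets changed direction as follows. With the macrophage score: Ifi27 -0.10, Psmb10 -0.48, Mx1 -0.0323, Bst2 -0.84 and Stat2 -0.10. With the lymphoid score: Irf8 -0.0495 and Stat2 -0.0671. Without HFB 6 and control 14: Psmb8 0.36 and Stat2 -0.0249. Psmb8 was 0.25 in limma; Stat2 was -0.00385 under the filter of 10 counts and -0.0224 with upper-quartile scaling. With 1 library left out, the ranges were Irf1 -0.47 to 0.03065, Psmb10 -0.24 to 1.15, Mx1 -0.20 to 1.53, Irf8 -0.68 to 0.51, Rsad2 -0.23 to 1.05, Bst2 -0.57 to 0.99, Psmb8 -0.41 to 0.77, Stat2 -0.11 to 0.11, Adar -0.07498 to 0.43 and Gbp2 -0.0183 to 0.13. Those that kept their direction ranged over Parp9 -0.49 to -0.26, Ifit2 -0.38 to -0.16, Cxcl9 -0.58 to -0.25, Ifi27 0.0208 to 0.28 and Parp14 -0.23 to -0.0179. Score differences ranged from -0.009002 to 1.41 (lymphoid), 0.15 to 0.32 (macrophage), -0.36 to -0.11 (endothelial), -0.74 to -0.22 (mammary epithelial), -0.18 to 0.23 (dendritic cell), -0.16 to 0.39 (natural killer cell), -0.31 to 0.23 (adipocyte), -0.17 to 0.83 (skeletal muscle) and 0.50 to 1.21 (red blood cell). The cause was not tested.

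No paired analysis was possible because no library number occurs in both diets. Members with few counts bear little on diet.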

Other observations

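Of the macrophage list, C1qb and C1qc were higher with HFB at an unadjusted p under 0.05 in edgeR, which 2.34% of all genes passed, with C1qb at a log2 fold change of 0.59 (adjusted p = 0.999) and C1qc at 0.36 (adjusted p = 0.999). HFB 5 and HFB 6 were the high libraries for both genes. C1qa did not pass (0.51), and Adgre1 (-0.06) and Mrc1 (-0.08) lay on the other side of 0.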
